A study of Rattus norvegicus with 3 samples.

Results

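Brainstem RNA from rats labelled TBI (traumatic brain injury) was set against brainstem RNA from rats labelled Sham, gene by gene. The description rests on 2 of the 3 arrays of the series, and the third, labelled Hand Acu (hand acupuncture), is printed beside named genes only. All groups were taken 1 h after modelling, the tissue of 5 animals was mixed, and 6 µg of total RNA was labelled, so each group is 1 pool of RNA on 1 array. The labels name the injury only as modelling, place its damage in the cortex, which was collected separately, and do not state if the acupuncture rats had been injured. Strain, age and sex are not given in the sources used here. The brightest probe set (a group of probes against 1 transcript) with a single gene symbol stood for each gene. A gene was kept where its mean log2 signal over the 3 arrays reached the median of all probe sets outside the controls, 7.44, called the floor below. That left 9241 of 14217 named genes, and 4976 lay below the floor.

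The brainstem joins the brain to the spinal cord and holds the nuclei that drive breathing, heart rate, arousal and the cranial nerves, together with long ascending and descending axon tracts. After a blow to the head, injured neurons release glutamate and potassium, immediate early genes respond to calcium and growth factor signals within the first hour, and adrenal glucocorticoids reach the brain through the blood. Cytokine transcripts, glial reaction and new matrix usually follow later.

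With 1 array on each side there is no replicate, so no difference has an error, no test was run, and the number of arrays limits the precision. A difference may come from the injury, from the pool of animals or from how the tissue was cut, and these cannot be told apart. In bulk tissue fewer cells of a type and less RNA per cell cannot be told apart either. All 18 probe sets for transcripts added before hybridisation were higher on the TBI array, by a median of 0.23 on the log2 scale. Of 24 probe sets for transcripts added before labelling, 20 were higher, with a median difference of 0.33. For beta-actin the 3' to 5' signal ratio, which increases as RNA degrades, was 5.58 on sham and 6.37 on TBI, while that of Gapdh was 1.25 and 1.203. What these controls contribute to any gene's difference was not tested.

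The brainstem transcriptome was close to equal on the sham and TBI arrays. Over the 9241 genes the median of TBI minus sham was 0.0043 on the log2 scale with an SD over genes of 0.20, and 84.2% of genes lay within 1.2-fold. The TBI array was higher for 51% of genes and lower for 49%. At 1.2-fold, 710 genes were higher (7.68%) and 753 lower (8.15%). At 1.5-fold, 80 genes were higher (0.866%) and 63 lower (0.682%), and at 2-fold 6 were higher (0.0649%) and 3 lower (0.0325%). These shares are the background for the counts given for gene groups below. Dim genes made up most of the tails. In 209 genes the sham or the TBI array itself lay below the floor, where signals are erratic, and their folds are less exact. The same limit holds for every gene named below with a sham or TBI value under 7.44. Among the 2311 genes of lowest signal the SD was 0.27, and 48 genes were higher and 35 lower by 1.5-fold or more. Among the 2310 brightest it was 0.14, and the numbers were 4 and 7.

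**Figure D1:**
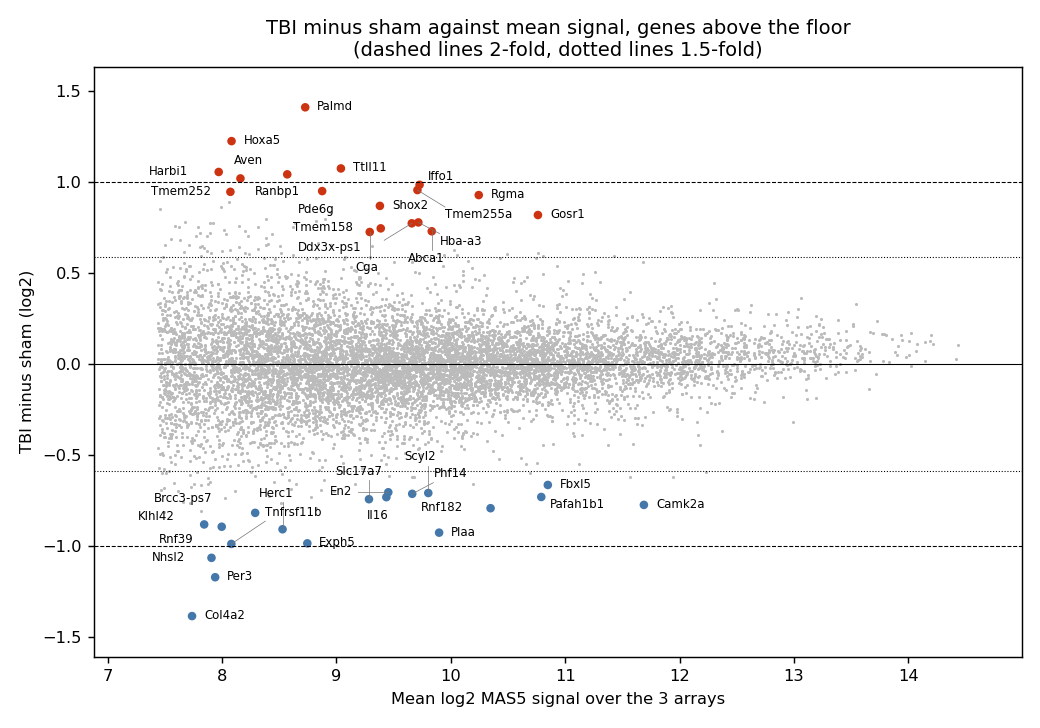
Each point is 1 of 9241 genes, with the mean log2 MAS5 signal over the 3 arrays on the x axis and TBI minus sham (log2) on the y axis. Dashed lines mark 2-fold and dotted lines 1.5-fold. Red and blue points are the named genes highest and lowest over all genes and among bright genes (mean of at least 9.25). The spread narrows from an SD of 0.27 in the dimmest genes to 0.14 in the brightest.

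The genes furthest apart did not belong to 1 pathway. Palmd, which encodes the membrane-associated protein palmdelphin, had a log2 signal of 7.89 on sham, 9.30 on TBI and 8.99 on hand acupuncture, a 2.65-fold higher signal on TBI than on sham. Its 3 dimmer probe sets, all below the floor, differed by 0.25, −0.10 and −0.34, so the difference lay in 1 of 4 probe sets. Hoxa5, a homeobox gene that specifies the caudal hindbrain and cervical cord, read 7.35, 8.57 and 8.34 in the same order of arrays (2.33-fold higher, from a sham value below the floor). Ttll11, a ligase that adds glutamate chains to tubulin, read 8.32, 9.40 and 9.40 (2.10-fold), but its dim second probe set differed by −0.95. In both of these genes it was the sham array that lay away from the other arrays.

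Aven, an inhibitor of caspase activation, read 8.04 on sham, 9.08 on TBI and 8.59 on hand acupuncture. Ranbp1, a cofactor of Ran in nuclear transport, read 7.54, 8.56 and 8.38. Harbi1, derived from a transposase gene, read 7.33, 8.38 and 8.20, with the sham value below the floor. For these 3 genes the TBI array was the highest. The remaining 4 of the 10 highest were Iffo1, Tmem255a, Pde6g and Tmem252, between 0.98 and 0.94 higher. The 2-fold limit separates near neighbours, since Ranbp1 at 1.02 lay just inside it and Iffo1 at 0.98 just outside.

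Among the genes lowest on the TBI array, Col4a2, a chain of basement membrane collagen, is described with its partner gene below. Nhsl2, of the Nance-Horan family of actin regulators, read 8.38 on sham, 7.32 on TBI (below the floor) and 8.02 on hand acupuncture. Tnfrsf11b, the decoy receptor osteoprotegerin, read 8.47, 7.48 and 8.30, and Exph5, a Rab27 effector of vesicle traffic, read 9.36, 8.38 and 8.50. Nhsl2 at −1.06 lay just inside 2-fold and Tnfrsf11b at −0.99 just outside. Plaa, an activator of phospholipase A2 and ubiquitin receptor, was the brightest, at a linear signal of 1230 on sham and 648 on TBI, and its second probe set went the other way, at 0.13. Herc1 and Rnf39, both ubiquitin ligase genes, differed by −0.91 and −0.89. Klhl42, a Cullin adaptor, differed by −0.88 and the pseudogene Brcc3-ps7 by −0.82.

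**Figure D2:**
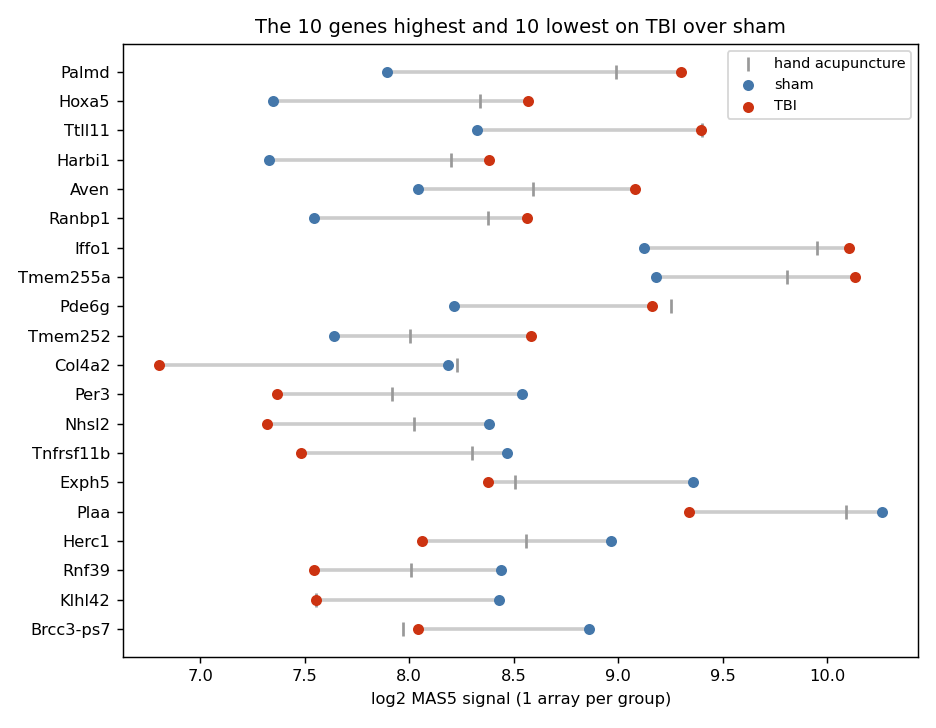
Log2 MAS5 signal of the 10 genes highest and the 10 lowest on TBI over sham, 1 array per group, with blue for sham, red for TBI and a grey tick for hand acupuncture. Palmd spans 7.89 to 9.30 and Col4a2 8.19 to 6.80, and most of these genes have at least 1 array under a log2 signal of 8.5.

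Brighter genes were then read on their own. Among 5255 genes with a mean log2 signal of at least 9.25, called bright genes below (the 75th percentile of probe sets), 19 were 1.5-fold higher or more, 18 were 1.5-fold lower or more, and 0 reached 2-fold. The highest were Iffo1 at 0.98 and Tmem255a at 0.95 and the lowest Plaa at −0.93, all named above. Next, Rgma, a membrane-anchored repulsive guidance molecule that restrains axon regrowth, read 9.77 on sham, 10.70 on TBI and 10.26 on hand acupuncture. Shox2, a homeobox gene of thalamic and some hindbrain neurons, read 9.06, 9.93 and 9.15, so the TBI array alone was high. Gosr1, a Golgi SNARE, read 10.27, 11.09 and 10.93, with all 3 of its probe sets higher, from 0.09 to 0.82. Abca1, the lipid exporter that loads cholesterol onto apolipoproteins, read 9.35, 10.08 and 10.07. All 4 of its probe sets were higher on TBI, by 0.73, 0.68, 0.32 and 0.28. Hba-a3, an alpha haemoglobin chain, read 9.41, 10.18 and 9.56. Tmem158, a gene induced by Ras signalling, was 0.74 higher, Cga, the shared alpha subunit of pituitary glycoprotein hormones, 0.72, and the pseudogene Ddx3x-ps1 0.77.

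Among the 10 lowest bright genes, 3 belong to excitatory transmission or to cerebellar and midbrain identity. Camk2a, the alpha subunit of the calcium and calmodulin-dependent kinase of excitatory synapses, read 12.01 on sham, 11.23 on TBI and 11.82 on hand acupuncture. Slc17a7, the vesicular glutamate transporter VGLUT1, read 9.62, 8.87 and 9.36, and En2, an engrailed factor that patterns midbrain and cerebellum, read 9.88, 9.18 and 9.30. In each the TBI array was the lowest of the 3. The probe sets of Camk2a did not go together: of the others above the floor 1 differed by −0.20 and 1 by 0.26. For Slc17a7 the second, below the floor, differed by −0.26. Il16, a precursor of a T cell attractant with a neuronal form, was lower by −0.73. Pafah1b1, the dynein regulator LIS1, also differed by −0.73, but its second probe set by −0.02. Rnf182, a neuronal ubiquitin ligase, differed by −0.79 and Scyl2, a kinase-like protein of clathrin coats, by −0.71, each with a second probe set lower as well. Fbxl5, the iron-sensing ubiquitin ligase subunit, differed by −0.66. Phf14, a chromatin reader, differed by −0.71 and was lower still on the hand acupuncture array, at 8.81 against 10.45 on sham. Its other probe sets above the floor did not share the TBI difference, at 0.05 and 0.09.

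Several probe sets of a gene allow a check within an array, although they share the RNA and are no replicates. Averaged over all of its probe sets, dim ones included, Harbi1 differed by 0.20, Iffo1 by 0.41, Shox2 by 0.38, Nhsl2 by −0.34, Herc1 by −0.47 and Phf14 by −0.27, each less than in the brightest probe set alone. Of 2073 genes with at least 2 probe sets above the floor, 481 had all probe sets higher on TBI and 588 all lower. Thus 51.6% went one way. A pair of unrelated probe sets would agree in sign about as often as not, so a shared sign alone says little. In 20 (0.965%) every probe set was at least 1.2-fold higher and in 28 (1.35%) at least 1.2-fold lower. Pde10a, a cyclic nucleotide phosphodiesterase of striatal neurons, was 0.80 and 0.73 higher in its pair of probe sets. Pdk4, the kinase that turns off pyruvate dehydrogenase, was 0.57 and 0.68 higher. Crem, a cAMP-responsive factor whose short isoform ICER is inducible, read 9.94 on sham, 10.46 on TBI and 10.16 on hand acupuncture in its brightest probe set, and its 3 probe sets above the floor were 0.52 to 0.68 higher. Of 3 further Crem probe sets below the floor, those with 6.73 and 7.10 on sham were 0.53 and 0.36 higher and the last differed by −0.29. Ptprj, a receptor tyrosine phosphatase, and Tes, a focal adhesion protein, were higher by at least 0.38 and 0.43 in each probe set. Cdkl4, Zfp213, C8h11orf87, Ccdc77 and Tmem38b made up the remainder of the 10, with a least difference between 0.40 and 0.57.

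In the other direction, 3 of the 10 genes with the largest agreeing difference are cerebellar granule cell genes. Gabra6, the GABA-A receptor alpha6 subunit, differed by −0.62 and −0.91, Reln, the secreted guidance protein reelin, by −0.62 and −0.86, and Cbln1, a synaptic organiser released by granule cells, by −0.54 and −0.65. Cadm3, a neuronal adhesion molecule, differed by −0.45 and −0.46 and Sgip1, an endocytic protein, by −0.39 and −0.43. Pkib, an inhibitor of protein kinase A, differed by −0.39 and −0.70. Greb1l, Mpp3 and Plcxd2 differed by −0.33 to −0.78 over their probe sets above the floor.

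**Figure D3:**
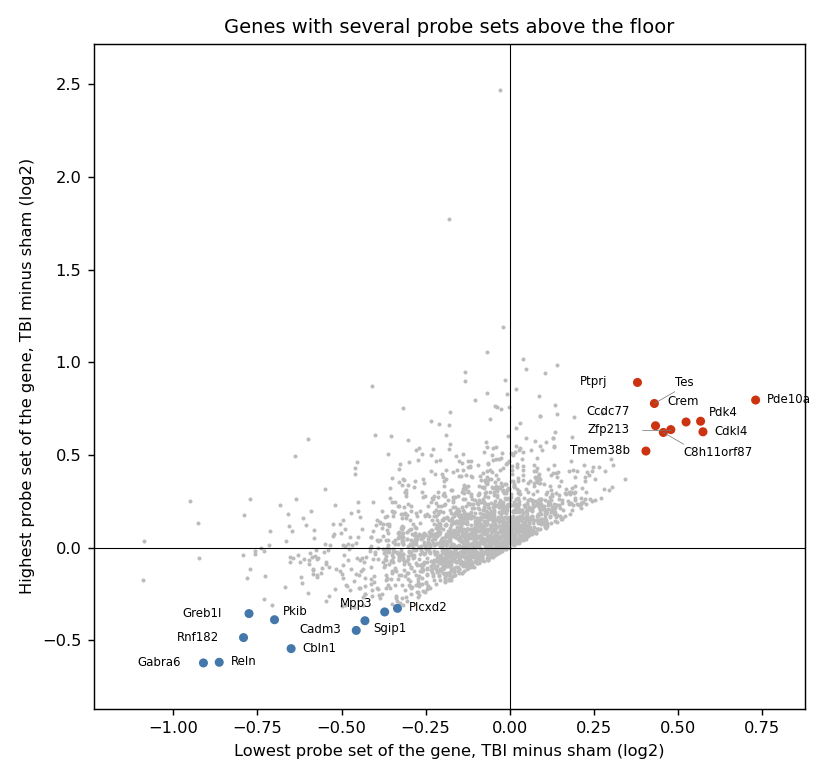
Each point is 1 of 2073 genes with at least 2 probe sets above the floor, placed by its lowest (x axis) and highest (y axis) probe set difference, TBI minus sham on the log2 scale. Points in the upper right and lower left have all probe sets one way, and the 10 genes with the largest agreeing difference in each direction are named, with Pde10a furthest right at 0.73 and 0.80. The highest grey point, at 2.47, is a dim further probe set of Luzp2.

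Gene lists were then read by region, cell type and response. They hold 1474 genes in 63 lists, of which 1282 had a probe set and 855 lay above the floor. Of 60 lists with at least 4 members above the floor, 15 had a median of 0.1 or more and 4 of −0.1 or less. Hypothalamic, reactive astrocyte and neuropeptide genes had the highest medians, and cerebellar neuron, pericyte and metabotropic glutamate receptor genes the lowest.

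**Figure D4:**
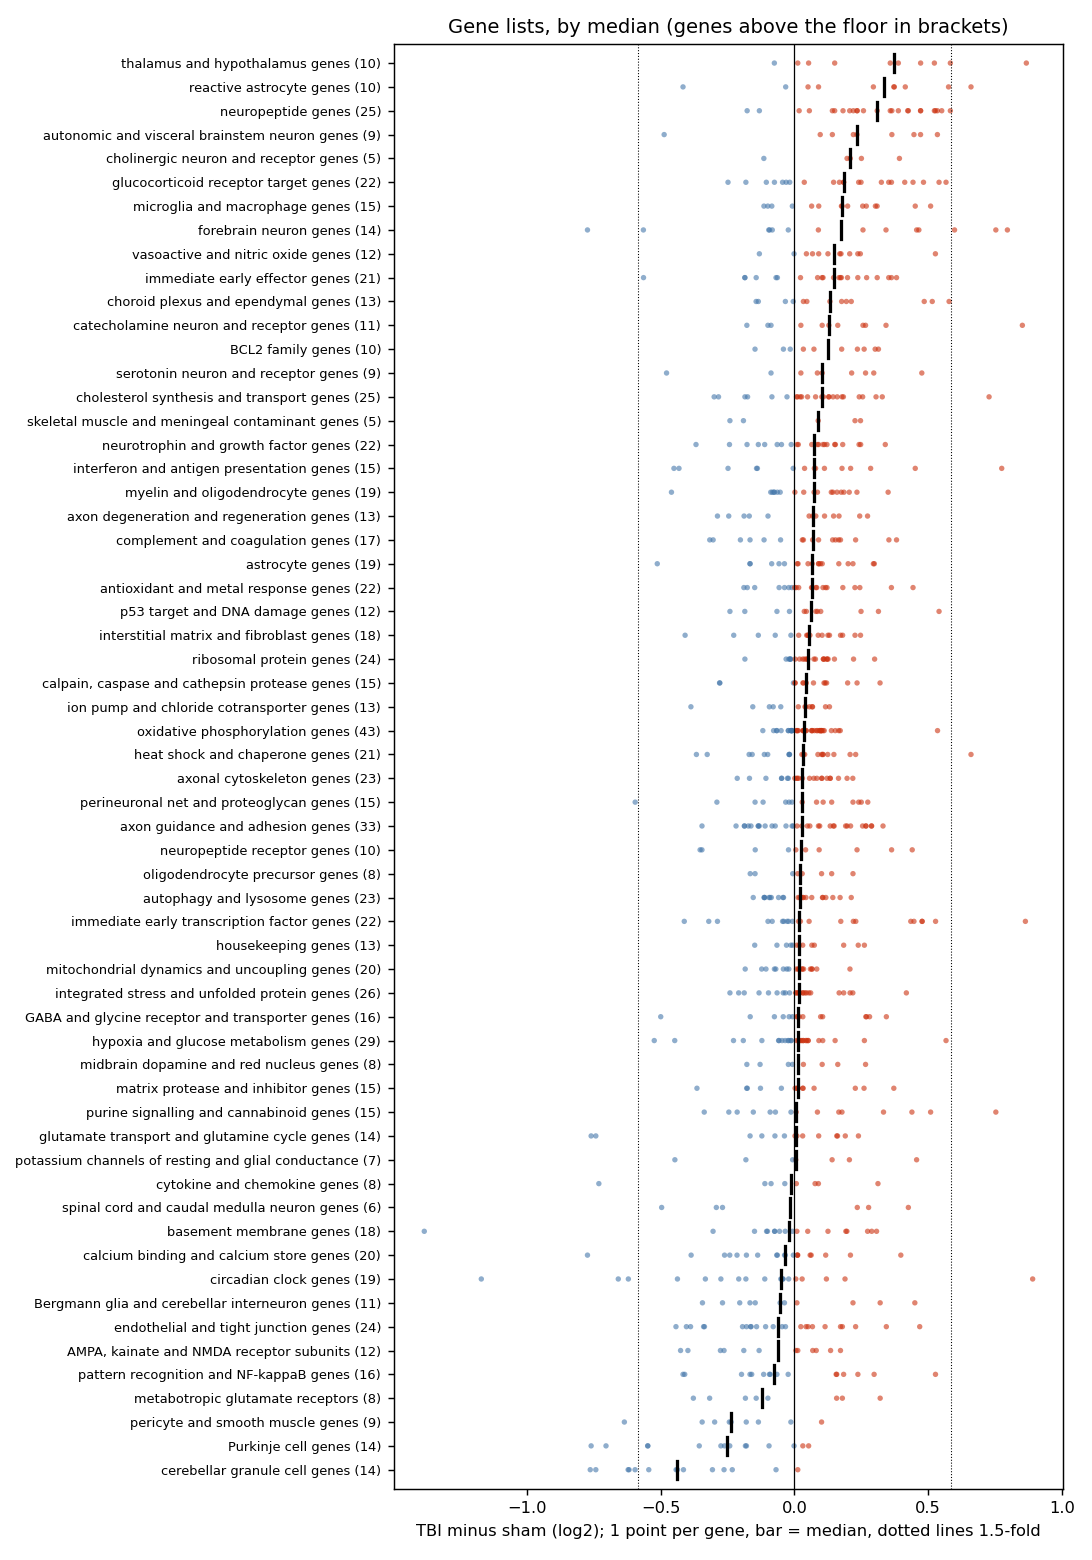
TBI minus sham (log2, x axis) for the members above the floor of 60 gene lists, 1 point per gene, with a black bar at each median and dotted lines at 1.5-fold. Lists are ordered by median, from 0.37 for thalamus and hypothalamus genes to −0.44 for cerebellar granule cell genes, and most lie within 0.1 of 0.

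The labelled tissue was checked against its markers. Lmx1b, which defines serotonergic hindbrain neurons, was not matched to a probe set here, and Phox2a, at a mean log2 signal of 5.92, Dbh, the noradrenaline enzyme, at 6.09, and Fev, the serotonin neuron factor, at 6.08 lay below the floor. Other brainstem neuron genes were above the floor, although dim. Slc6a4, the serotonin transporter, read 8.16 on sham, 8.64 on TBI and 8.50 on hand acupuncture, and Chat, the acetylcholine enzyme of motor neurons, read 7.71, 7.96 and 7.99. Of 18 Hox genes with a probe set 3 were above the floor, Hoxa5 and, at 0.18 and 0.08 higher, Hoxb3 and Hoxb2. Transcripts of neighbouring regions were also present on every array, with Gabra6 at 12.38 on sham and Pmch, the hypothalamic melanin-concentrating hormone, at 12.08.

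Cerebellar neuron genes were the lowest group on the TBI array, and granule cell genes more so than Purkinje cell genes. Granule cells are the small glutamatergic neurons that send parallel fibres to the Purkinje cells, the inhibitory output neurons of the cerebellar cortex. Of 14 granule cell genes above the floor 13 were lower, 10 of them at least 1.2-fold and 5 at least 1.5-fold, with a median of −0.44 (−0.49 over the 10 bright ones). Their summed linear signal was 32096 on sham, 23130 on TBI and 23691 on hand acupuncture. All 8 further probe sets of these genes were lower too. Neurod1, a factor of granule cell differentiation, read 12.58 on sham, 11.99 on TBI and 12.12 on hand acupuncture. Etv1, an activity-dependent ETS factor, read 12.44, 12.001 and 12.08, with all 5 of its probe sets lower. Fat2, a protocadherin of parallel fibres, read 9.15, 8.38 and 8.03. In these 3 genes and in Gabra6, Reln and Cbln1 the sham array was the highest of the 3.

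Of 14 Purkinje cell genes 12 were lower, 6 at least 1.2-fold and 2 at least 1.5-fold, with a median of −0.25. Slc1a6, the Purkinje glutamate transporter EAAT4, read 8.18 on sham, 7.42 on TBI and 7.37 on hand acupuncture. Pcp2, a G protein modulator made in Purkinje cells, read 11.56, 11.01 and 10.80, and Ppp1r17, a phosphatase inhibitor of the same cells, read 9.85, 9.30 and 9.15. Car8, which binds the IP3 receptor, was lower by −0.36. The summed linear signal of the list was 44261 on sham and 40245 on TBI. Gad1 and Pcp4, which many other neurons make, were the brightest members and differed by 0.03 and 0.05. Bergmann glia and cerebellar interneuron genes had a median of −0.05 with 4 higher and 7 lower, Gdf10 of Bergmann glia at −0.34 and Nxph1 of interneurons at 0.45. How much cerebellum each pool held was not tested.

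Hypothalamic and thalamic genes lay at the upper end. Of 10 above the floor 9 were higher on TBI, 6 at least 1.2-fold, with a median of 0.37. Among these Oxt, Avp, Crh, Trh, Pmch and Hcrt are also neuropeptide genes, a class described below. Tcf7l2 and Lef1 differed by 0.05 and −0.07. Below the floor, Otp, Sim1 and Hdc were lower on TBI, and Gbx2, Nkx2-1, Rax and Pomc higher. Oxt, the oxytocin precursor, read 10.61 on sham, 11.19 on TBI and 10.43 on hand acupuncture. Avp, the vasopressin precursor, read 10.34, 10.82 and 10.51. Crh, the releasing hormone that starts the pituitary-adrenal response, read 7.82, 8.34 and 8.17, and Trh, its thyroid counterpart, read 7.80, 8.19 and 7.90. In these 4 peptides and in Shox2 the TBI array was the highest. Pmch read 12.08, 12.44 and 12.44. Of 9 pituitary hormone genes 2 were above the floor, Cga at 0.72 and Tshb at 0.36, while the transcripts of growth hormone, prolactin and proopiomelanocortin lay far below it, with means of 3.13 for Gh1, 1.43 for Prl and 3.01 for Pomc. The part of differences in dissection in these values was not tested.

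Forebrain genes lay on both sides of 0. Among genes of striatal projection neurons Adora2a, the adenosine receptor of the indirect pathway, read 8.15 on sham, 8.90 on TBI and 8.82 on hand acupuncture, and Ppp1r1b, the dopamine-regulated phosphatase inhibitor DARPP-32, read 9.59, 10.18 and 10.05. Rgs9, a striatal regulator of dopamine receptor signalling, was 0.47 higher, and Bcl11b 0.46, against its second probe set. Among genes of cortical excitatory neurons Camk2a differed by −0.77, and Neurod2, a factor that granule cells also make, read 8.50, 7.94 and 8.35. Of 14 members 8 were higher and 6 lower, and the median was 0.17.

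Neuropeptide genes as a class were higher. Of 25 above the floor 23 were higher on TBI, 13 at least 1.2-fold and 0 at least 1.5-fold, with a median of 0.31 (0.23 over the 17 bright ones). Their summed linear signal was 38822 on sham, 45567 on TBI and 44768 on hand acupuncture. Pnoc, the nociceptin precursor, read 7.53 on sham, 8.08 on TBI and 7.91 on hand acupuncture. Calca, which encodes calcitonin gene-related peptide of sensory and motor neurons, read 8.06, 8.59 and 8.47. Grp, a peptide of itch and breathing circuits, read 7.42, 7.96 and 7.79. In all 3 the hand acupuncture array lay between the other arrays, nearer to TBI. Their receptors did not share this: of 39 receptor genes with a probe set 10 were above the floor, 6 higher and 4 lower, with a median of 0.02. Npy5r, a receptor of neuropeptide Y, was 0.44 higher and Trhr, the receptor of TRH, 0.36, while Sstr3 and Nmbr, receptors of somatostatin and neuromedin B, each differed by −0.35.

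Most monoamine and acetylcholine genes with a probe set lay below the floor: 13 of 22 serotonin, 13 of 24 catecholamine and 19 of 24 cholinergic genes. Above it serotonin genes had a median of 0.10 (7 of 9 above 0), catecholamine genes of 0.13 (8 of 11) and cholinergic genes of 0.21 (4 of 5). The serotonin and catecholamine lists share Slc18a2, Ddc, Maoa and Maob, and the median over bright members was 0.06 in both. Gch1, which supplies tetrahydrobiopterin to tyrosine and tryptophan hydroxylase, read 6.90 on sham, 7.75 on TBI and 7.73 on hand acupuncture. Its sham value was under the floor, so the gene was kept only through the other arrays. Averaged over its probe sets the difference was 2.30, but that value draws on still dimmer signals and is less exact. Slc18a2, the vesicular monoamine transporter, was 0.27 higher with all 3 probe sets one way. Htr2a, an excitatory serotonin receptor, read 7.86, 7.38 and 7.62. Th, the rate-limiting enzyme of catecholamine synthesis, was 0.16 higher and the dopamine transporter Slc6a3 differed by −0.18.

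Of 19 autonomic and visceral brainstem neuron genes with a probe set 10 lay below the floor. Of the 9 above it 8 were higher, with a median of 0.23. Among these Grp, Gal, Tac1, Penk, Cartpt and Nts are also neuropeptide genes and Egr2 is also an early factor, so the list is not a separate result. Ebf1 was 0.10 higher. Nts, the gene of neurotensin, read 9.15 on sham, 9.62 on TBI and 9.52 on hand acupuncture, and Gal, the gene of galanin, 8.84, 9.20 and 9.15. Nkx2-2, a factor of ventral hindbrain neurons and of oligodendrocyte precursors, was the exception, at 8.29, 7.80 and 8.43.

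Glutamate signalling showed opposite values for the paired vesicular transporters. Slc17a6, VGLUT2, which most brainstem excitatory neurons use, read 12.26 on sham, 12.50 on TBI and 12.40 on hand acupuncture, whereas Slc17a7, VGLUT1, of cortical and granule neurons, was lower at −0.74. The list of transport and glutamine cycle genes had a median of 0.01, with Slc1a6 and Slc17a7 the only members past 1.2-fold, and the astrocyte transporter Slc1a2 at −0.17. Ionotropic receptor subunits were 6 higher and 6 lower with a median of −0.06. Each of the 3 past 1.2-fold was lower: Grin2a, an NMDA receptor subunit, at −0.43, Gria4, an AMPA receptor subunit with 3 of 3 probe sets lower, at −0.40, and the obligatory NMDA subunit Grin1 at −0.28. Grin2c, the granule cell NMDA subunit, was lower by −0.26. Metabotropic receptors and their Homer scaffolds had a median of −0.12, which turned to 0.0070 when a gene's probe sets were averaged. Grm4, of parallel fibre terminals, was lower by −0.38 and Grm2, of Golgi cells, 0.32 higher.

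Inhibitory receptor and transporter genes had a median of 0.02, with 10 higher and 6 lower. The list leaves out Gabra6, which is counted with granule cell genes and was lower than any of its members. Within it Gabrd, the extrasynaptic delta subunit of granule cells, read 9.78 on sham, 9.28 on TBI and 9.18 on hand acupuncture, and Gabrg1, the gamma1 subunit, was 0.34 higher. Gabra2 and Gabra5 were each 0.27 higher. Ion pumps and chloride cotransporters were close to equal, with a median of 0.04, and the single member past 1.2-fold was Atp2b3, a calcium pump abundant in the cerebellum, at −0.39. Of resting potassium channels, Kcnj11, the pore of the ATP-sensitive channel, was 0.46 higher and Kcnj3, a G protein-gated channel, differed by −0.45. Calcium-binding genes had a median of −0.04, with Hpca, the sensor hippocalcin, 0.40 higher and Camk4, a kinase of granule cells, at −0.39.

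Immediate early transcription factors did not go one way. Of 22 above the floor 12 were higher and 10 lower, with a median of 0.02. Fosb read 7.46 on sham, 8.32 on TBI and 8.20 on hand acupuncture, and Fos, its partner in AP-1 complexes with Jun proteins, read 10.35, 10.83 and 10.82. Nr4a3, an orphan nuclear receptor, read 8.22, 8.70 and 8.79 with both probe sets higher. Egr2 and Egr4, zinc finger factors induced by activity, were 0.45 and 0.44 higher. The sham array was the lowest in each of these 5 genes. In the other direction Nr4a1, of the same family as Nr4a3, read 9.66, 9.25 and 9.68, and Junb read 7.91, 7.59 and 7.56. Atf3, an injury-induced factor, read 7.80, 7.51 and 8.04.

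Immediate early effector genes, induced alongside such factors, were higher in 15 of 21 cases, with a median of 0.15. Sgk1, a kinase induced by glucocorticoids and growth factors, read 12.87 on sham, 13.23 on TBI and 13.09 on hand acupuncture. Plat, tissue plasminogen activator, read 11.10, 11.48 and 11.08, and Errfi1, a feedback inhibitor of the EGF receptor, read 11.10, 11.45 and 11.24. Vgf, a secreted neuropeptide precursor regulated by neurotrophins, read 11.22, 11.53 and 11.57. Dusp5, a nuclear phosphatase that shuts off ERK, was the lowest, at 8.23, 7.67 and 8.01.

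The start-site windows of Egr2, Dusp5 and Vgf are shown because these early genes carry promoter motifs for activity-dependent factors yet lay on both sides of 0: Egr2 at 0.45, Vgf at 0.31 and Dusp5 at −0.56. The sequences are from RefSeq, assembly GRCr8, 250 bases before to 50 bases after the start site, 5′ to 3′ on the gene's strand, with motif matches in capitals. They lie at chr20:21054392-21054691 on the minus strand for Egr2, at chr1:262543524-262543823 on the plus strand for Dusp5 and at chr12:25276971-25277270 on the minus strand for Vgf.
Egr2: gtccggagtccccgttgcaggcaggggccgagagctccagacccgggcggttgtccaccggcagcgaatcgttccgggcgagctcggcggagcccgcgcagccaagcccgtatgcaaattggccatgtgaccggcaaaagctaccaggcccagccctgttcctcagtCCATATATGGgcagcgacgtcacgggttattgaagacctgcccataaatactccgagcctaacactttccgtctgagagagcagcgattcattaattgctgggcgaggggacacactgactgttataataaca
Dusp5: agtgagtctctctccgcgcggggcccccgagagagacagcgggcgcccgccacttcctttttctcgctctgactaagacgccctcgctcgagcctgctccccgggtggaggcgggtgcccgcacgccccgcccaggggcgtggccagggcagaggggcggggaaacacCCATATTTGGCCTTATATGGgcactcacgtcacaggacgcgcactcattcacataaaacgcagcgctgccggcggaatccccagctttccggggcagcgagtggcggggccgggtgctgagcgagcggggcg
Vgf: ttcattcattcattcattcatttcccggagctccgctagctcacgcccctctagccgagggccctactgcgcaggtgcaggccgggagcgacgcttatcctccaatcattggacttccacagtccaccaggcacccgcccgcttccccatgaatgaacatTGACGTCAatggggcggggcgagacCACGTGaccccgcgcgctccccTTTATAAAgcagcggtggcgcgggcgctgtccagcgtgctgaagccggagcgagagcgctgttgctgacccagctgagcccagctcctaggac
In the Egr2 window the capitals mark 1 CArG box, the site read by serum response factor, starting at −83 from the start site. Dusp5 has a pair of CArG boxes, CCATATTTGG at −82 and CCTTATATGG at −72, end to end. In Vgf they mark a CRE, TGACGTCA, at −90, an E-box, CACGTG, at −65, and TATA motifs that overlap each other at −43 and −41. A match describes letters in this window and not a bound site.

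Those motifs were counted over all promoters of the same length, on both strands, with the E-box as CACGTG, the D-box as TTATGNAA, the CRE as TGACGTCA, AP-1 as TGANTCA, the TATA box as TATAAA and the CArG box by its consensus. Of 7720 genes above the floor with a promoter entry, 9.73% held an E-box, 1.68% a D-box, 3.35% a CRE, 4.42% an AP-1 motif, 1.36% a CArG box and 6.27% a TATA box. Of the 61 genes at least 1.5-fold higher on TBI that have an entry, 1 held an E-box, 2 a D-box, 4 a CRE, 6 an AP-1 motif, 1 a CArG box and 9 a TATA box. Of the 52 at least 1.5-fold lower, the numbers were 5, 2, 1, 1, 0 and 4 in the same order. The median GC content was 59.0% in the higher, 61.2% in the lower and 61.7% in all genes with an entry.

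Glucocorticoid receptor targets had a median of 0.18, with 15 of 22 higher, 8 of them 1.2-fold or more, and 0 of the others 1.2-fold lower. The lowest was Fam107a, an actin-binding stress gene, at −0.25. Pdk4 read 9.87 on sham, 10.43 on TBI and 10.16 on hand acupuncture. Cdkn1a, the cell cycle inhibitor p21, read 9.01, 9.55 and 9.16, and Mt2A, a metal-binding metallothionein, read 10.51, 10.96 and 10.37. In these 3 the TBI array was the highest. Each is also counted in another list: Pdk4 with hypoxia and glucose genes, Cdkn1a with p53 targets and Mt2A with antioxidant genes. The glucocorticoid list is therefore not a separate result. Cebpd and Cebpb, factors of the acute phase response, were 0.48 and 0.41 higher. Per1, both a clock gene and a direct glucocorticoid target, went the other way, at −0.18, and the receptor itself, Nr3c1, differed by −0.02.

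Clock genes held some of the furthest values in the comparison. In the core loop Clock and Bmal1 drive the Per and Cry repressors and, through E-boxes, the D-box factors Dbp, Tef and Hlf, which Nfil3 opposes at the same sites. Per3 read 8.54 on sham, 7.37 on TBI and 7.92 on hand acupuncture, a 2.25-fold lower signal from a TBI value below the floor. Its second probe set, far below the floor, read 4.81 and 2.85. Per2 read 9.999, 9.38 and 9.60, although with the mean of its probe sets the difference was −0.27 in place of −0.62. Dbp read 10.44, 9.79 and 10.36. Nr1d2, the haem receptor REV-ERB beta, read 11.88, 11.45 and 11.46 with all 3 probe sets lower, and Nr1d1, REV-ERB alpha, read 7.72, 7.39 and 7.78. Nfil3, the D-box repressor, stood opposite these 5 genes at 7.69, 8.58 and 7.91.

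The drivers themselves were close to equal, with Clock at −0.02, Bmal1 at 0.12 and Npas2, a homologue of Clock, at 0.19, and so were Cry1 at −0.04 and Cry2 at −0.05. Of 19 clock genes 14 were lower and 5 higher, with a median of −0.05, 6 at least 1.2-fold lower and 1 at least 1.2-fold higher. The times of day at which the pools were taken are not given in the sources used here, and their part in these values was not tested.

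**Figure D5:**
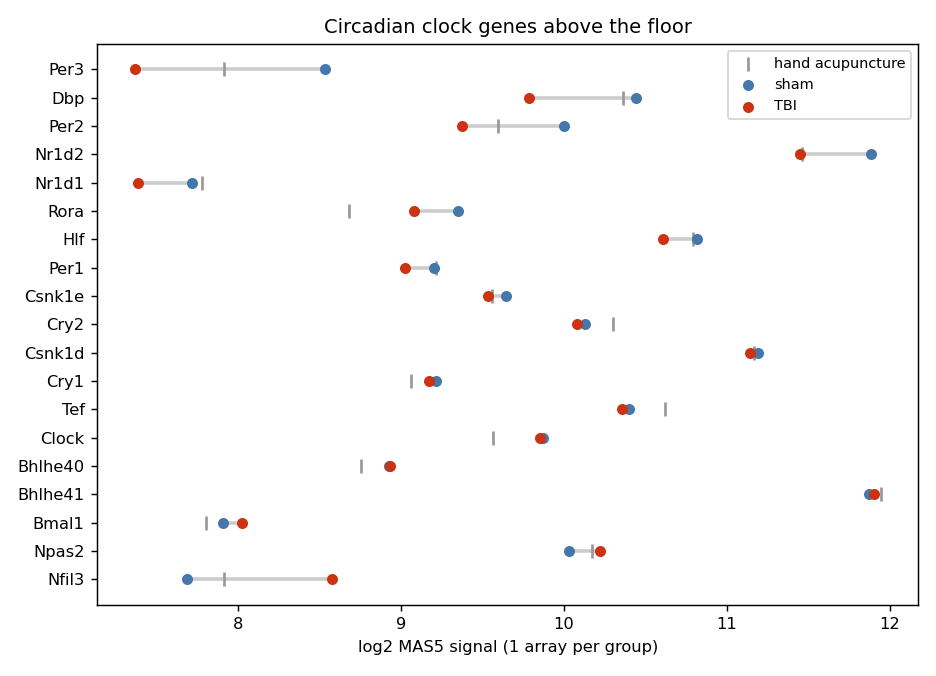
Log2 MAS5 signal of the 19 circadian clock genes above the floor, 1 array per group, ordered by TBI minus sham, with blue for sham, red for TBI and a grey tick for hand acupuncture. Per3, Dbp, Per2, Nr1d2 and Nr1d1 lie lower on TBI and Nfil3 higher, with Clock and Cry genes near equal.

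The Per2 window is shown because it holds a D-box, the site that Dbp and Nfil3 compete for, starting at −192 from the start site (chr9:99496944-99497243, minus strand, GRCr8, capitals mark the D-box). The windows of Per3, Dbp and Nfil3 themselves held none of the 6 motifs searched.
Per2: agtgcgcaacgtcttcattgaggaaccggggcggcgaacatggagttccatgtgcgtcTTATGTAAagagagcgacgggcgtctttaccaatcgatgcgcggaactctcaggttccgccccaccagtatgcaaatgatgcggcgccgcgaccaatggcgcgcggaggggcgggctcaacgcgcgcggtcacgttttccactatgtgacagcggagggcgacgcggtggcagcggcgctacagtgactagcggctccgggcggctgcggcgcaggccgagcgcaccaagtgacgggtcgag

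Collagen IV gave the lowest gene of all. Its alpha1 and alpha2 chains assemble together into the sheet of every vascular basement membrane, and their genes lie head to head. Col4a2 read 8.19 on sham, 6.80 on TBI and 8.23 on hand acupuncture, so the TBI array alone was low and lay below the floor, where a fold of 2.61 is not exact. Col4a1, its partner, read 8.15, 8.46 and 8.45 in its brighter probe set and 7.97, 7.95 and 8.15 in the other. The chains therefore differed by −1.38 and 0.31 on the same arrays, and Col4a2 has 1 probe set above the floor. Col4a5, an alternative chain, was 0.20 higher. Of 18 basement membrane genes 8 were higher and 10 lower, with a median of −0.02. Col18a1, the source of endostatin, was lower by −0.30 in its brightest probe set and Fbln1 and Nid2, linkers of the sheet, were 0.29 and 0.27 higher.

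The windows around both starts are shown because the genes share a promoter region (RefSeq, GRCr8, 250 bases before to 50 after each start). Col4a1 lies at chr16:84885347-84885646 on the plus strand and Col4a2 at chr16:84885471-84885770 on the minus strand. The start sites are 77 bases apart, and 176 bases are common to both windows, read from opposite strands.
Col4a1: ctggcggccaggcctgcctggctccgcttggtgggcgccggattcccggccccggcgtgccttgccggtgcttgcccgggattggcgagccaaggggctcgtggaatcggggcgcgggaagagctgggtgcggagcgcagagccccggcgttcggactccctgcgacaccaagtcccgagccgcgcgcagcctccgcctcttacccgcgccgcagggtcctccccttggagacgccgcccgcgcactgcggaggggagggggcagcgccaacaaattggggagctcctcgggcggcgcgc
Col4a2: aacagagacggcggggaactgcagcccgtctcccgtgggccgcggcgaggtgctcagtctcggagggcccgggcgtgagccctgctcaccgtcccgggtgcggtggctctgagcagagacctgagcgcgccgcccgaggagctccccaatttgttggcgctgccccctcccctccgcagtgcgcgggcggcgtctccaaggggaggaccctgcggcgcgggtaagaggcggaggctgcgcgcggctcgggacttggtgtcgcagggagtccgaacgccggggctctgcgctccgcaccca
The 6 motifs had no match in either window, and the GC content was 75% and 73.7%.

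Other vascular genes lay on both sides of 0. Of the 9 pericyte and smooth muscle genes above the floor 8 were lower, 3 at least 1.2-fold, with a median of −0.24 (−0.02 over the 2 bright ones and −0.02 with no floor). Of the 9 below the floor 7 were higher on TBI, among them Acta2, smooth muscle actin, at 0.17 and the pericyte genes Pdgfrb and Cspg4 at 0.27 each, so no direction is given for these cells. Tagln, an actin-binding protein of smooth muscle, read 9.09 on sham, 8.45 on TBI and 8.22 on hand acupuncture, Myl9, a myosin light chain, 9.12, 8.78 and 9.03, and Vtn, vitronectin made by brain pericytes, 8.63, 8.33 and 8.72. Endothelial genes had a median of −0.06 with 10 higher and 14 lower. Cldn5, the main claudin of the blood-brain barrier, read 11.14, 10.69 and 10.60, and Ocln, its tight junction partner, read 8.91, 8.57 and 8.80. Mfsd2a, the lipid transporter that restrains transcytosis there, was 0.47 higher. Slc7a5, the large neutral amino acid transporter, differed by −0.40 and Ackr1, a chemokine receptor of venules, by −0.39.

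Of 18 blood cell genes with a probe set 3 were above the floor, and all 3 were higher on TBI. Hbb, beta globin, read 13.46 on sham, 13.79 on TBI and 13.39 on hand acupuncture. Alas2, the haem enzyme of red cell precursors, read 7.78, 8.10 and 7.84, and Pf4, a platelet chemokine, 7.89, 8.41 and 8.26. All 3 were highest on the TBI array. Hba-a3, at 0.78, is outside this list and was named above because it was among the highest bright genes. Below the floor, the platelet genes Ppbp and Gp9 differed by −0.42 and −0.26, and Itga2b and Slc4a1 by 0.78 and 0.58. The defining transcripts of neutrophils and lymphocytes lay below the floor, S100a9 at a mean of 7.09 and Cd3e at 4.96. The part of blood left in the tissue was not tested.

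Inflammatory mediators were mostly too dim to read. Of 33 cytokine and chemokine genes 8 were above the floor, with 4 higher and 4 lower and a median of −0.01. The classic early mediators lay below it, with means of 6.12 for Il1b, 4.91 for Il6, 3.08 for Tnf and 6.38 for Ccl2, so differences in them were not readable on these arrays. Il16 read 9.87, 9.13 and 9.31, and Cxcl12, a chemokine made constitutively by neurons and vessels, was 0.31 higher in its brightest probe set only. Receptor and NF-kappaB genes had a median of −0.08. Il6r, the interleukin 6 receptor, read 7.43, 7.96 and 7.50, while Tnfrsf1a, the TNF receptor, read 8.59, 8.18 and 8.26. Tnfaip3 and Nfkbia, feedback inhibitors of NF-kappaB, were 0.30 and 0.18 higher.

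Interferon-linked genes were on both sides of 0, 9 higher and 6 lower. Rsad2, the antiviral enzyme viperin, read 7.55 on sham, 8.33 on TBI and 7.79 on hand acupuncture. Irf7, a master factor of type I interferon, read 7.56, 7.11 and 7.93, and Stat2, a transducer of interferon receptors, differed by −0.43 with both probe sets lower.

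Of 15 microglial genes above the floor 11 were higher, 5 at least 1.2-fold, and 0 were 1.2-fold lower, with a median of 0.18. The 8 below the floor went both ways. Trem2 (−0.74), Irf8, Cd68 and Cd14 were lower on TBI, and Cd163 (0.65), Itgam, Siglec5 and Cx3cr1 higher. P2ry12, the purinergic receptor of resting microglia, read 9.92 on sham, 10.43 on TBI and 9.98 on hand acupuncture, but its second probe set went the other way. Cd74, the invariant chain of MHC class II, read 8.64, 9.09 and 8.91, and Tmem119, a marker of resident microglia, 8.25, 8.50 and 8.06. C1qb and C1qc of complement were 0.27 and 0.30 higher. Aif1, which encodes IBA1, differed by −0.11. Over the 5 bright members the median was 0.09.

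Astrocyte identity genes had a median of 0.07 and genes of reactive astrocytes one of 0.33. Of 10 reactive genes above the floor 8 were higher, 6 at least 1.2-fold, and over the 3 bright ones the median was 0.30. The 8 below the floor went both ways. Serpina3n (−0.73) and Steap4 (−0.35) were lower on TBI, and Lcn2 (0.09), Nes, Sphk1, Clcf1, Cxcl10 and Tgm1 (0.83) higher. Gfap, the intermediate filament, read 12.38 on sham, 12.67 on TBI and 12.39 on hand acupuncture. Hspb1, a small heat shock protein, read 7.997, 8.66 and 8.55, and Emp1, a membrane glycoprotein, 8.11, 8.69 and 8.60. S100a10, a partner of annexin A2, was 0.41 higher and Timp1, an inhibitor of matrix proteases, 0.37. Stat3, the factor upstream of glial reactivity, was lower at 8.25, 7.83 and 7.53 with both probe sets one way. Among identity genes Id3, a BMP target, was lower by −0.51 and Mlc1, a perivascular membrane protein, 0.30 higher.

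Oligodendrocyte and ependymal genes differed little in median, 0.07 for 19 myelin genes and 0.13 for 13 choroid plexus and ependymal genes. Enpp6, a marker of newly formed oligodendrocytes, read 8.31 on sham, 7.85 on TBI and 8.36 on hand acupuncture, and Aspa, the acetylaspartate hydrolase of mature ones, was 0.35 higher. In the latter list 9 were higher and 4 lower. Dynlrb2, a dynein light chain of cilia, read 8.76, 9.34 and 9.10, Tmem212 7.67, 8.19 and 7.75, and Foxj1, the factor that sets up cilia, 7.82, 8.31 and 8.39.

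Axonal injury markers were close to equal. Of 23 axonal cytoskeleton genes, all of them bright, 0 passed 1.2-fold and the median was 0.03. Uchl1, whose protein is a serum marker of brain injury, read 11.35 on sham, 11.57 on TBI and 11.20 on hand acupuncture, and Nefm, the middle neurofilament, 13.23, 13.36 and 13.31. Ank3, which builds the axon initial segment, differed by −0.17. Of the axon degeneration genes Sarm1, the enzyme that executes axon loss, was lower by −0.25 and Nmnat1, which makes NAD and opposes it, 0.24 higher. Genes of calpains, caspases and cathepsins had a median of 0.04, with Capns1, the shared calpain subunit, 0.32 higher and Casp2 and Casp4 each at −0.28. The BCL2 family had 7 of 10 higher and a median of 0.13, but of 0.0093 over the 6 bright ones. Bbc3 (PUMA) was 0.31 and Bcl2l1 (BCL-XL) 0.30 higher.

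Stress and metabolic genes stayed near 0 as groups. The median was 0.03 for heat shock, 0.02 for unfolded protein, 0.07 for antioxidant and 0.01 for hypoxia and glucose genes, 0.04 for oxidative phosphorylation and 0.05 for ribosomal protein genes. Single members stood away. Of the heat shock genes Hspb1, named above with reactive astrocyte genes, was 0.66 higher. Hspa4, a large chaperone, differed by −0.37 and Hsf1, the factor that drives heat shock genes, by −0.33. Eif2ak2, of the unfolded protein list, was 0.42 higher. Gclm, of glutathione synthesis, was 0.36 higher and Gys1, glycogen synthase, lower at 8.18, 7.65 and 7.98. Cox5a, a subunit of cytochrome oxidase, read 9.61, 10.15 and 10.03 and was the only one of 43 oxidative phosphorylation genes past 1.2-fold. Of 25 cholesterol genes 19 were higher (median 0.10), led by Abca1, with the synthesis enzyme Mvd at 0.33 and the neuronal cholesterol hydroxylase Cyp46a1 at −0.28. Housekeeping genes had a median of 0.02.

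Matrix and growth factor genes closed the survey. Matrix protease genes had a median of 0.01, with Adam10, the main alpha secretase, at −0.36. Sdc1, a heparan sulfate proteoglycan, read 8.55 on sham, 7.96 on TBI and 8.26 on hand acupuncture. Among 22 growth factor genes Igf1 was lower by −0.37 with both probe sets one way, and Egf 0.34 higher. Axon guidance genes had a median of 0.03, with Unc5b, a netrin receptor, at −0.35 and Nrp1, a semaphorin receptor, 0.29 higher in both probe sets. Purine signalling and cannabinoid genes had a median of 0.01, with Adora2a the highest at 0.75 and Nt5e, which makes adenosine outside cells, at −0.34. P2ry6, a UDP receptor that triggers phagocytosis, was 0.44 higher, from a sham value below the floor.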

How the data were processed

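The 3 arrays measured 31099 probe sets, of which 57 were controls. The authors deposited log2 values of MAS5 signals, per the submitters' processing notes, which give no version. With 2 raised to each deposited value, the 2% trimmed mean was 500.0 on all arrays, which gave the log base and the scaling. Genome build and array software are not given in the sources used here.

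Gene symbols came from the platform's 2016 annotation: 20826 had 1 symbol, 436 several and 9780 none. Of 14217 genes 14167 were found in RefSeq (GRCr8), which also gave the promoters. TBI minus sham was taken as deposited. The named genes are the 10 highest and 10 lowest overall and among bright genes (mean of at least 9.25), the 10 per direction with the largest agreeing probe sets, and up to 6 members per list with the largest difference or any past 1.5-fold. Members of families, genes below the floor, cell markers and clock genes near 0 were also named, after their values were seen. Listed genes absent under their symbol were matched by an older one in 22 cases. Members and lists were chosen with earlier results of these data known. The steps were tested on simulated data and run with matplotlib 3.10.9, pandas 2.3.3 and numpy 2.4.6 under Python 3.11.15. Alternatives were quantile normalization, median centring, a higher floor, no floor, an offset of 50 and the mean of a gene's probe sets.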

Additional observations from a re-analysis of the deposited data

Results flagged for a closer look

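Probe sets with no single gene symbol lie outside the gene-level comparison. Of 3596 such probe sets above the floor, 12 were at least 2-fold lower on the TBI array (0.334%) and 2 at least 2-fold higher (0.0556%), and at 1.5-fold 85 were lower and 48 higher. The probe set 1394689_at read 9.51 on sham, 7.60 on TBI and 8.41 on hand acupuncture, and 1377774_at read 10.28, 8.38 and 8.17, differences of −1.91 and −1.90 that are larger than that of the brightest probe set of any gene above the floor. On the higher side 1385653_at read 7.97, 9.27 and 8.78 and 1395714_at read 9.73, 10.85 and 11.07. Their transcripts are unnamed in the annotation used here.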

How the results depend on the processing

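Counts of genes by fold depend on the floor. At 2-fold, 6 genes were higher and 3 lower as described, 0 and 0 with the higher floor of 9.25, 547 and 487 with no floor, and 3 and 1 with an offset of 50 added before the log. At 1.5-fold, 80 and 63 became 19 and 18 with the higher floor, 1022 and 905 with no floor, and 48 and 38 with the offset. Genes with every probe set past 1.2-fold one way, 48 as described, were 15 with the higher floor and 285 with no floor. Lists with a median at least 0.1 from 0 were 19 of 60 as described and 9 of 50 with the higher floor. The reactive astrocyte, cholinergic, metabotropic receptor and pericyte lists had fewer than 4 members there and were not counted. Calpain, caspase and cathepsin genes (0.12) and ionotropic glutamate receptor subunits (−0.13) passed 0.1 only with the higher floor. The median of the metabotropic glutamate receptors turned from −0.12 to 0.0070 when probe sets were averaged. Over 349 list medians recomputed under the alternatives, the pericyte median without a floor (−0.02) was the only one to move by more than the SD over genes, 0.20. Of 280 recomputed values of 70 named genes 24 moved that far, 21 of them with the mean of all probe sets, where Palmd was 0.30, Ttll11 0.06 and Camk2a −0.20, and Mpp3 turned to 0.06. Quantile normalization and median centring moved no named gene or list median that far, and the median of all genes stayed between 0.0038 and 0.010 under all settings. The spread over genes was widest among dim genes, with an SD of 0.27 among the 2311 dimmest. It is not a measure of error, since each group has 1 array. No paired analysis was possible because each group has 1 array.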

Other observations

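On the higher side, probe sets other than the one that stands for a gene held the largest differences. Of 2684 further probe sets above the floor, 5 were at least 2-fold higher on the TBI array and 2 at least 2-fold lower, and in each of these 7 the gene's brightest probe set differed by −0.18 to 0.31. One probe set of Luzp2, a leucine zipper protein of the brain, read 7.28 on sham, 9.75 on TBI and 7.78 on hand acupuncture, while its brightest differed by −0.03. One of Tpm3, a tropomyosin of the actin cytoskeleton, read 7.58, 9.35 and 8.07, with 0.31 in its brightest. Further probe sets of Yme1l1, a protease of the inner mitochondrial membrane, and of Sbno1 and C19h1orf198 were 1.19, 1.06 and 1.02 higher. One of Ddx42, an RNA helicase of splicing, differed by −1.09. In Luzp2 and Tpm3 the TBI array alone was high, and neither gene would be named from its brightest probe set.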
